A study of Rattus norvegicus with 10 samples.

Results

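The interferon response genes described here are 29 genes chosen by symbol, among them transcription factors, sensors of viral RNA and the antiviral proteins that interferon induces. Of the 29 symbols, 25 matched a gene of the expression table and all 25 were tested, out of 16194 genes tested in all. Igtp stood on 2 rows, which were summed. Irf9 and Oas1a stood only on rows that also name a second gene, Rnf31 and Oas1i, and are given apart. Herc6 and Xaf1 matched no row and are not analysed here. Oasl reached the minimum mean of 0.5 FPKM only through the library TBI 1.

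The samples were hippocampus of male Sprague-Dawley rats weighing 200 to 240 g, from 5 libraries of rats given a traumatic brain injury by fluid percussion (TBI), in which a fluid pulse strikes the exposed dura, and 5 libraries of rats given sham surgery. All rats had been tested for learning 1 week after surgery and were killed after that test, so both groups share the surgery and the test. Neither the rats' age nor the side of the hippocampus is stated in the labels. Whether every library came from its own animal is not stated in the labels. The p-values therefore refer to the spread among the libraries, part of which may be technical. Poly-A RNA was sequenced, and the deposited values are FPKM, read fragments per length of the transcript and per mapped fragments of the library. The files hold no counts, so the depth behind each value is unknown, and an FPKM near 0 cannot be given a detection limit.

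Interferons are secreted when cells detect viral or misplaced nucleic acid. Type I interferons bind the receptor of Ifnar1 and Ifnar2, whose kinases activate STAT2 and related factors. With IRF9 they bind interferon-stimulated response elements in the promoters of target genes. Interferon gamma acts through Ifngr1 and Ifngr2 and a different promoter element, the gamma-activated site. In the brain, microglia, astrocytes, vessels and the meninges all respond, and the induced proteins block viral entry, RNA and assembly.

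RefSeq promoters of the rat assembly GRCr8, covering 250 bases before to 50 bases after the start of a gene, were on hand for 21 of the 29 genes. The letters GAAANNGAAA or, for the other strand, TTTCNNTTTC, the core of an interferon-stimulated response element, stood in 13 of these 21 promoters (61.9%), against 3.92% of all 33469 promoters. The letters TTCNNNGAA, the core of a gamma-activated site, which reads the same on both strands, stood in 8 of them (38.1%), against 8.87% of all promoters. Both stood in 5 promoters, those of Ifitm3, Igtp, Parp14, Oas1a and Bst2, and the matches could overlap. Neither stood in those of Herc6, Stat2, Mx1, Parp9 and Oasl. A match is a description of letters, and no match says only that these letters are not in this window. The 250 bases before the start are shown for 5 genes that differ in these elements and in how they varied between libraries. The Irf7 (chr1:205800024-205800273, minus strand) and Ifit3 (chr1:241527076-241527325, plus strand) promoters hold a response element, the Bst2 promoter (chr16:18254968-18255217, minus strand) holds both kinds, the Irf1 promoter (chr10:38417685-38417934, plus strand) holds a gamma-activated site, and the Mx1 promoter (chr11:50294607-50294856, minus strand) holds neither. Each is written 5′ to 3′ in the direction of the gene, and capitals mark the matches.
Irf7: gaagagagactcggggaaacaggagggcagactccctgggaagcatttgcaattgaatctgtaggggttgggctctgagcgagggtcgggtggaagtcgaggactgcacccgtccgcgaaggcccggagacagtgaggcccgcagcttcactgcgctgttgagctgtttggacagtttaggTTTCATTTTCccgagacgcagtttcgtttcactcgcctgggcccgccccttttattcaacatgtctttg
Ifit3: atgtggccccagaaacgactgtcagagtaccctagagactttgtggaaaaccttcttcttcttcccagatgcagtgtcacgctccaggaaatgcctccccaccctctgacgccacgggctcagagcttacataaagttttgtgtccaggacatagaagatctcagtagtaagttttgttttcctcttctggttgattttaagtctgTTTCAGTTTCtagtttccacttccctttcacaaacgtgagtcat
Bst2: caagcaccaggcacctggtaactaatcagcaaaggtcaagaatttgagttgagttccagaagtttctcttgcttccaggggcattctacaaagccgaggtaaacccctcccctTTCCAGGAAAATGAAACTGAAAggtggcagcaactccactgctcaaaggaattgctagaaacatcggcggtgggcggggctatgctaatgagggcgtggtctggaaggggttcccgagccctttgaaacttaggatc
Irf1: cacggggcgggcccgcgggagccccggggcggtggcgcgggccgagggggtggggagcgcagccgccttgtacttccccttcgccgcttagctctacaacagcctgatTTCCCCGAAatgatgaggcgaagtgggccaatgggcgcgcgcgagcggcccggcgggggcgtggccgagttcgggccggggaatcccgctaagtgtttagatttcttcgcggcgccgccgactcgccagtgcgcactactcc
Mx1: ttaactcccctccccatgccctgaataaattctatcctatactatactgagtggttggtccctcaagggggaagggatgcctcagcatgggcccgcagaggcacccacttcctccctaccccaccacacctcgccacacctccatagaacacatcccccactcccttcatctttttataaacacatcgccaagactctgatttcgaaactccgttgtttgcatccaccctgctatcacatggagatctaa
The match began 69 bases before the start in Irf7, 44 bases before it in Ifit3 and 142 bases before it in Irf1. In Bst2, TTCCAGGAA began 137 bases before the start and ran into GAAAATGAAA and GAAACTGAAA, which began 131 and 125 bases before it.

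The 4 markers of hippocampal granule and pyramidal neurons, Prox1, Wfs1, Neurod6 and Calb1, were present in every library, with sums of 166.5 to 362.8 FPKM in TBI and 228.4 to 473.5 FPKM in sham libraries. Other tissue varied between libraries within both groups. The 10 markers of meninges and matrix summed to 45.3 to 607 FPKM in TBI and 40.5 to 491 FPKM in sham libraries, with TBI 1, sham 2 and sham 4 above the rest, although Col1a2 was listed at 0 in all 10 libraries. The 8 matched markers of choroid plexus, of 9, summed to 89.4 to 32840 FPKM in TBI and 51.5 to 31790 FPKM in sham libraries. The 6 matched markers of endothelium, of 8, summed to 77.7 to 98.0 FPKM in TBI and 95.3 to 143.4 FPKM in sham libraries, highest in sham 4. Of these, Cldn5 had 45.3 to 54.3 FPKM in TBI and 61.3 to 82.4 FPKM in sham libraries, and the groups overlapped for the others. The part of endothelium in the levels of the interferon response genes was not tested. In bulk tissue, fewer cells of a type and less RNA per cell cannot be told apart.

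No interferon response gene passed the test between TBI and sham hippocampus, and for every one of the 25 the libraries of the groups overlapped. Of the 25 genes, 24 had a higher mean log2 level in TBI than in sham libraries (22 of 25 after quantile normalization), and 1, Ifitm3, had a lower one. Among the 24 is Oasl, which reached the minimum mean only through TBI 1, so its higher mean in TBI follows from the filter. With a minimum mean of 1 FPKM, which leaves out Oasl and others, 19 of 20 were higher, against 49.1% of all genes. Over all genes tested, 50.4% had a higher mean in TBI. The median log2 difference of the 25 genes was 0.28, with a range of -0.17 to 1.39, against 0.00 for all genes tested. None of the 25 reached an adjusted p under 0.05 in limma's test, the background being 0% higher and 0% lower of the 16194 genes. At an unadjusted p under 0.05, limma called 0 of the 25 genes, against 1.41% higher and 1.51% lower of all genes, and the exact permutation test called 1 (4% of them), Stat2, against 3.51% of all genes, and 0 after adjustment. For 0 of the 25 genes did the groups stand apart, against 0.241% of all genes in each direction. Adjusted p-values of the 25 genes in limma ran from 0.983 to 0.999.

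**Figure D1:**
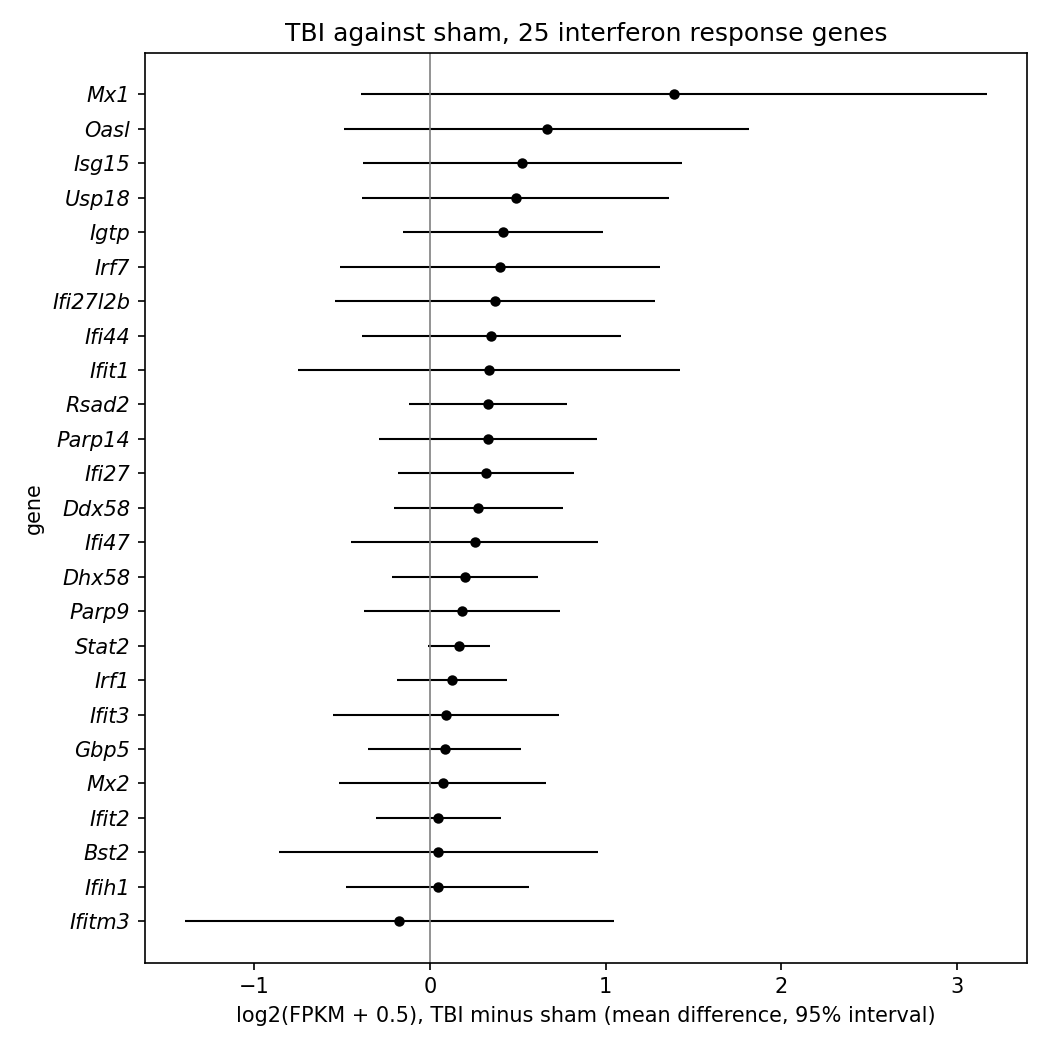
Difference between TBI and sham libraries for each of the 25 genes, as the mean difference in log2(FPKM + 0.5) with its 95% interval from limma (n = 5 each), sorted by size. All 25 intervals hold 0, and Mx1 at 1.39 has the widest.

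The intervals show how little the libraries can resolve. All 25 of the 95% intervals held 0, and 9 of them also reached a log2 difference of 1. The median half-width was 0.62 on the log2 scale, from 0.18 for Stat2 to 1.78 for Mx1. The coefficient of variation of FPKM between libraries had a median over the 25 genes of 46.1% in TBI and 44.1% in sham, against 18.1% in TBI and 15.7% in sham over all genes tested. The 25 genes were also low in level, with a median of 2.94 FPKM against 8.49 FPKM for all genes tested. Averaged over the 10 libraries, 5 genes lay under 1 FPKM, 17 between 1 and 10 FPKM, and 3, Ifi27, Ifitm3 and Bst2, above 10 FPKM.

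The size of the shared difference depended on single libraries. The median log2 difference was 0.14 without TBI 1, 0.15 without TBI 3 and 0.17 without sham 1, against 0.28 with all libraries, and 0.38 without TBI 2. With only the libraries numbered 2 to 5 of each group, it was 0.03, and 13 of 24 genes had the higher mean in TBI, against 54.7% of all genes. With limma's array weights it was 0.15, and 20 of 25 genes were higher in TBI. Without TBI 1 and sham 4 together, a choice made after seeing the data, it was 0.27, with 22 of 24 genes higher in TBI. Of the single genes, 21 moved by more than 1.5 times, or turned sign, with at least 1 library left out, and Isg15, Mx1 and Stat2 did not, nor did Oasl, which could not be tested without TBI 1. The 25 genes vary together, so their count by sign is not that of 25 separate observations.

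**Figure D2:**
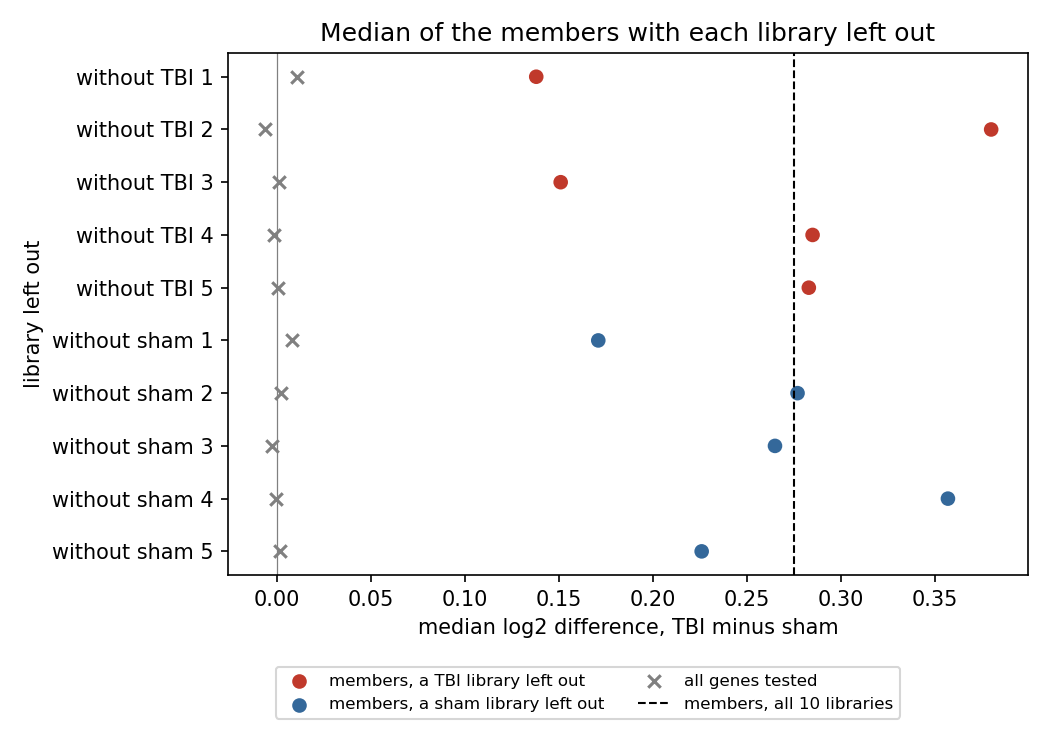
Median log2 difference, TBI minus sham, of the interferon response genes (filled points) and of all genes tested (crosses) with each library left out in turn. The dashed line is the value with all 10 libraries, 0.275, and the points run from 0.138 without TBI 1 to 0.38 without TBI 2.

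Among the regulators, Stat2, a transcription factor of the type I interferon signal, came nearest to a difference. Stat2 had 9.83, 10.7, 10.7, 10.1 and 8.61 FPKM in TBI 1 to 5, against 9.0, 9.24, 8.72, 9.10 and 8.10 FPKM in sham 1 to 5. TBI 1 to 4 lay above every sham library, and TBI 5 lay within the sham range. The means were 9.97 ± 0.843 FPKM in TBI and 8.83 ± 0.453 FPKM in sham (SD, n = 5 each). The log2 difference was 0.16 (SE 0.08, 95% interval -0.01 to 0.34), with an exact two-sided permutation p of 0.0397 and an adjusted p of 0.983 in limma. Stat2 was also the steadiest of the 25 genes, with 1.32-fold between its lowest and highest library.

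Irf7, the factor that amplifies the type I interferon response, had 8.56, 2.38, 6.01, 2.10 and 3.36 FPKM in TBI 1 to 5, against 1.65, 2.65, 2.60, 7.18 and 2.15 FPKM in sham 1 to 5. TBI 1, sham 4 and TBI 3 stood above the other 7 libraries, so the groups overlapped over nearly their whole range. The means were 4.48 ± 2.75 FPKM in TBI and 3.25 ± 2.24 FPKM in sham (SD, n = 5 each), a log2 difference of 0.40 (SE 0.41, 95% interval -0.51 to 1.31, adjusted p = 0.983 in limma). Without TBI 1 the difference was 0.14, without sham 4 it was 0.70, and with the libraries numbered 2 to 5 alone it was -0.02. Irf1, an early factor induced most strongly by interferon gamma, had 5.56, 4.43, 4.53, 4.67 and 5.30 FPKM in TBI 1 to 5, against 4.28, 4.62, 3.51, 6.26 and 3.87 FPKM in sham 1 to 5. Its highest library was sham 4, and the log2 difference was 0.13 (SE 0.14). The row shared by Irf9, the DNA-binding subunit of the complex that holds STAT2, and Rnf31, a ubiquitin ligase subunit, had 12.6 to 16 FPKM in TBI and 10.3 to 17.4 FPKM in sham libraries. Reads of these neighbours cannot be told apart there.

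The 3 cytoplasmic RNA sensors of the RIG-I family were low. Ddx58, which encodes RIG-I, had 5.56, 2.20, 3.62, 2.10 and 2.98 FPKM in TBI 1 to 5, against 2.18, 2.49, 2.44, 3.11 and 2.27 FPKM in sham 1 to 5. TBI 1 was the highest library and the lowest was TBI 4, outside the sham range on either side. Its log2 difference was 0.28 (SE 0.22), or 0.09 without TBI 1. Ifih1, which encodes MDA5, a sensor of long double-stranded RNA, had 0.542 to 1.99 FPKM in TBI and 0.832 to 1.68 FPKM in sham libraries, with a log2 difference of 0.04 (SE 0.24) that turned to -0.04 after quantile normalization. Dhx58, which encodes their regulator LGP2, had 1.86, 1.35, 2.18, 1.5 and 1.92 FPKM in TBI 1 to 5, against 1.26, 1.06, 1.36, 2.52 and 1.34 FPKM in sham 1 to 5. All TBI libraries lay above the sham median of 1.34 FPKM, yet the highest library was sham 4, and the log2 difference was 0.20 (SE 0.19), or 0.36 without sham 4.

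The genes whose products act on viral RNA included the 3 Ifit genes, which bind foreign RNA ends and block translation. Ifit2 had 1.94, 2.13, 2.37, 2.0 and 2.53 FPKM in TBI 1 to 5, against 1.75, 1.86, 1.87, 3.39 and 1.90 FPKM in sham 1 to 5. Each TBI library lay above 4 of the sham libraries and below sham 4. TBI minus sham was 0.05 on the log2 scale (SE 0.16), and it was -0.02 after quantile normalization. Ifit3 had 1.32, 0.558, 1.25, 0.570 and 1.77 FPKM in TBI 1 to 5, against 0.664, 0.799, 0.768, 2.17 and 0.665 FPKM in sham 1 to 5. Sham 4 was again the highest library, TBI 2 and TBI 4 were the lowest, and the log2 difference was 0.09 (SE 0.29). Ifit1 had 1.21, 0.259, 1.97, 0.900 and 0.0502 FPKM in TBI 1 to 5, against 0, 0.490, 1.21, 0.0248 and 1.24 FPKM in sham 1 to 5. Its order was unlike that of Ifit2 and Ifit3, with sham 4 near 0, and its log2 difference of 0.34 had an SE of 0.49 and was 0.07 without TBI 3.

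Rsad2, which encodes viperin, an enzyme that makes a chain-terminating nucleotide, had 1.25, 0.726, 1.83, 0.729 and 1.04 FPKM in TBI 1 to 5, against 0.649, 0.573, 0.603, 1.04 and 0.937 FPKM in sham 1 to 5. TBI 3 and TBI 1 were the highest libraries, and TBI 2 and TBI 4 lay between sham libraries. Its log2 difference was 0.33 (SE 0.20, 95% interval -0.12 to 0.78), or 0.19 without TBI 3. Oasl, a relative of the oligoadenylate synthetases, had 4.35 FPKM in TBI 1 and 0.0763 to 0.547 FPKM in the other TBI libraries, against 0.0273 to 0.589 FPKM in sham libraries. With TBI 1 included, the means were 1.08 ± 1.84 FPKM in TBI and 0.205 ± 0.223 FPKM in sham (SD, n = 5 each). The row shared by Oas1a and Oas1i, synthetases of the messenger that activates RNase L, had 0.233 to 1.49 FPKM in TBI and 0.300 to 2.08 FPKM in sham libraries.

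In the ISG15 system, both genes had high and low libraries in each group. Isg15, a ubiquitin-like protein joined to other proteins after interferon, had 8.56, 2.55, 8.42, 2.56 and 7.49 FPKM in TBI 1 to 5, against 2.19, 4.34, 2.17, 7.22 and 3.12 FPKM in sham 1 to 5. TBI 1, TBI 3 and TBI 5 lay above every sham library, and TBI 2 and TBI 4 lay low in the sham range. Isg15 differed by 0.53 on the log2 scale (SE 0.41, 95% interval -0.38 to 1.43). Usp18, the protease that removes ISG15 and damps the interferon receptor, had 3.04, 0.905, 2.51, 0.724 and 1.74 FPKM in TBI 1 to 5, against 0.856, 0.994, 0.449, 3.01 and 0.619 FPKM in sham 1 to 5. TBI 1 and sham 4 were nearly equal and highest, and the log2 difference was 0.49 (SE 0.39), or 0.30 without TBI 1 and 0.80 without sham 4. Parp9 and Parp14, which encode members of the ADP-ribosyltransferase family, varied likewise. Parp9 had 1.83 to 4.75 FPKM in TBI and 1.77 to 3.77 FPKM in sham libraries, and Parp14 had 0.528 to 1.76 FPKM in TBI and 0.289 to 1.37 FPKM in sham libraries. Their log2 differences were 0.18 (SE 0.25) for Parp9, or 0.04 without TBI 1, and 0.33 (SE 0.28) for Parp14, or 0.165 without TBI 1.

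Of the GTPases, Mx1 stood apart. Mx1, which in the rat encodes a nuclear inhibitor of influenza-like viruses, had 4.90, 10.2, 7.03, 12.7 and 0.791 FPKM in TBI 1 to 5, against 13, 0.915, 0.451, 2.73 and 0.520 FPKM in sham 1 to 5. Sham 1, lowest of all libraries for 9 of the 25 genes, was the highest for Mx1, and the groups overlapped from end to end. The means were 7.12 ± 4.62 FPKM in TBI and 3.52 ± 5.36 FPKM in sham (SD, n = 5 each). The log2 difference of 1.39 (SE 0.81, 95% interval -0.39 to 3.17) was the largest of the 25 genes, with an exact two-sided permutation p of 0.175 and an adjusted p of 0.983 in limma. Mx2, the cytoplasmic Mx protein of the rat, had 5.97, 5.40, 12.3, 5.78 and 8.33 FPKM in TBI 1 to 5, against 4.25, 5.43, 7.06, 10.6 and 8.42 FPKM in sham 1 to 5. TBI 3 and sham 4 were the highest libraries of Mx2, and its log2 difference was 0.07 (SE 0.27).

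The GTPases of the vacuole and cell-autonomous defence, which interferon gamma induces in mice, were lower. Igtp had 4.42, 2.98, 4.94, 2.52 and 2.85 FPKM in TBI 1 to 5, against 1.28, 3.33, 2.97, 3.55 and 1.83 FPKM in sham 1 to 5, as the sum of its 2 rows. TBI 1 and TBI 3 lay above every sham library, sham 1 was the lowest, and the log2 difference was 0.42 (SE 0.26, 95% interval -0.15 to 0.98). The value depended on summing the rows: with the higher row alone, which averaged 1.68 FPKM in TBI and 1.46 FPKM in sham, it was 0.09, and the other row averaged 1.86 FPKM in TBI and 1.13 FPKM in sham. It was 0.23 without sham 1. Near-identical copies of Igtp could share reads between the 2 rows. Ifi47 had 1.18 to 3.90 FPKM in TBI and 1.07 to 3.20 FPKM in sham libraries, and Gbp5, which promotes inflammasome assembly, had 0.614 to 1.21 FPKM in TBI and 0.520 to 1.38 FPKM in sham libraries. The log2 differences were 0.25 (SE 0.32) for Ifi47, or 0.09 without TBI 1, and 0.08 (SE 0.20) for Gbp5.

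The membrane proteins held the 3 most abundant genes by FPKM. Ifi27, a small mitochondrial and nuclear-envelope protein, had 110, 105, 136, 143 and 114 FPKM in TBI 1 to 5, against 112, 108, 94.2, 141 and 52.2 FPKM in sham 1 to 5. Sham 5 was the lowest library, the other 9 lay between 94.2 and 143 FPKM, and the log2 difference was 0.32 (SE 0.23), or 0.10 without sham 5. Ifitm3, which holds viruses in endosomes, had 50.8, 10.6, 15.2, 8.74 and 15.5 FPKM in TBI 1 to 5, against 14, 29.7, 10.3, 52.2 and 9.17 FPKM in sham 1 to 5. Sham 4, TBI 1 and sham 2, the libraries with the most meninges and matrix RNA, were its 3 highest. Its means of 20.2 ± 17.4 FPKM in TBI and 23.1 ± 18.2 FPKM in sham (SD, n = 5 each) gave the only negative log2 difference, -0.17 (SE 0.55), which was 0.20 without sham 4 and 0.04 without TBI 4. Bst2, which encodes tetherin and ties budding virus to the cell, had 33.8, 8.49, 17.1, 12.8 and 22.5 FPKM in TBI 1 to 5, against 8.50, 26.6, 16.6, 29.1 and 10.9 FPKM in sham 1 to 5. The same 3 libraries were its highest, in another order, and the log2 difference was 0.05 (SE 0.41), or -0.19 without TBI 1. Col1a1, a collagen of the meninges, had 30.5, 2.39, 3.54, 2.87 and 3.04 FPKM in TBI 1 to 5, against 2.80, 20.3, 1.54, 34.3 and 1.66 FPKM in sham 1 to 5. The part of such tissue in the levels of Ifitm3 and Bst2 was not tested.

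Ifi27l2b, a relative of Ifi27, had 10.6, 3.95, 7.29, 2.31 and 5.12 FPKM in TBI 1 to 5, against 2.87, 3.76, 2.80, 10.2 and 2.81 FPKM in sham 1 to 5. TBI 1 and sham 4 were again close together at the top, and the log2 difference was 0.37 (SE 0.41), or 0.13 without TBI 1 and 0.69 without sham 4. Ifi44, a cytoplasmic protein of less known function, had 9.48, 2.66, 5.68, 3.66 and 6.25 FPKM in TBI 1 to 5, against 2.34, 5.04, 3.51, 6.91 and 2.99 FPKM in sham 1 to 5. Its lowest library was sham 1, its highest TBI 1, and the log2 difference was 0.35 (SE 0.33), or 0.14 without TBI 1.

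**Figure D3:**
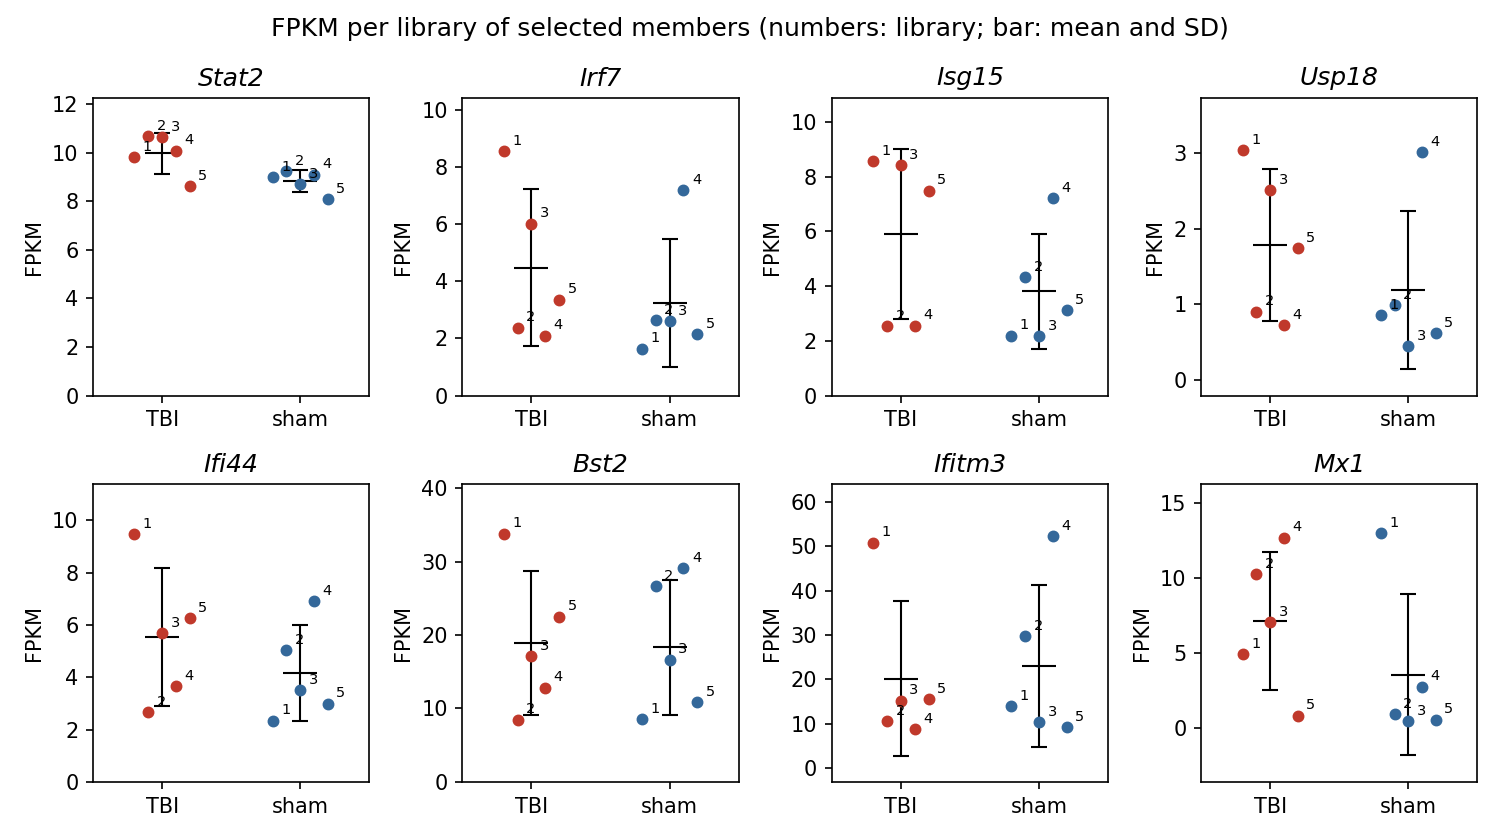
FPKM of 8 of the genes in each library, TBI left of sham, with the library number beside each point and a bar for the mean and SD of 5 libraries. TBI 1, TBI 3 and sham 4 are the highest libraries of Irf7 and Usp18, Stat2 varies little, and sham 1 at 13 FPKM is the highest library of Mx1.

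Most of the 25 genes were high in the same libraries, of both groups. TBI 1 was the highest library for 11 of the 25 genes, among them Oasl, which reached the minimum mean only through TBI 1. The highest was sham 4 for 6 genes and TBI 3 for 4. None of these 3 libraries was the lowest library of any of the 25, and neither was TBI 5. The shares of all genes with each library highest or lowest are not given here. Sham 4 was among the 3 highest libraries for 20 genes, TBI 1 for 19 and TBI 3 for 18, while the next, TBI 5, was so for 8. At the other end, sham 1 was the lowest library for 9 genes and sham 3 for 4. The mean centred log2 level over the 25 genes was 0.67 in TBI 1, -0.29 in TBI 2, 0.45 in TBI 3, -0.16 in TBI 4 and 0.06 in TBI 5, against -0.39 in sham 1, -0.11 in sham 2, -0.34 in sham 3, 0.48 in sham 4 and -0.36 in sham 5. The 3 high libraries were 2 of TBI and 1 of sham.

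**Figure D4:**
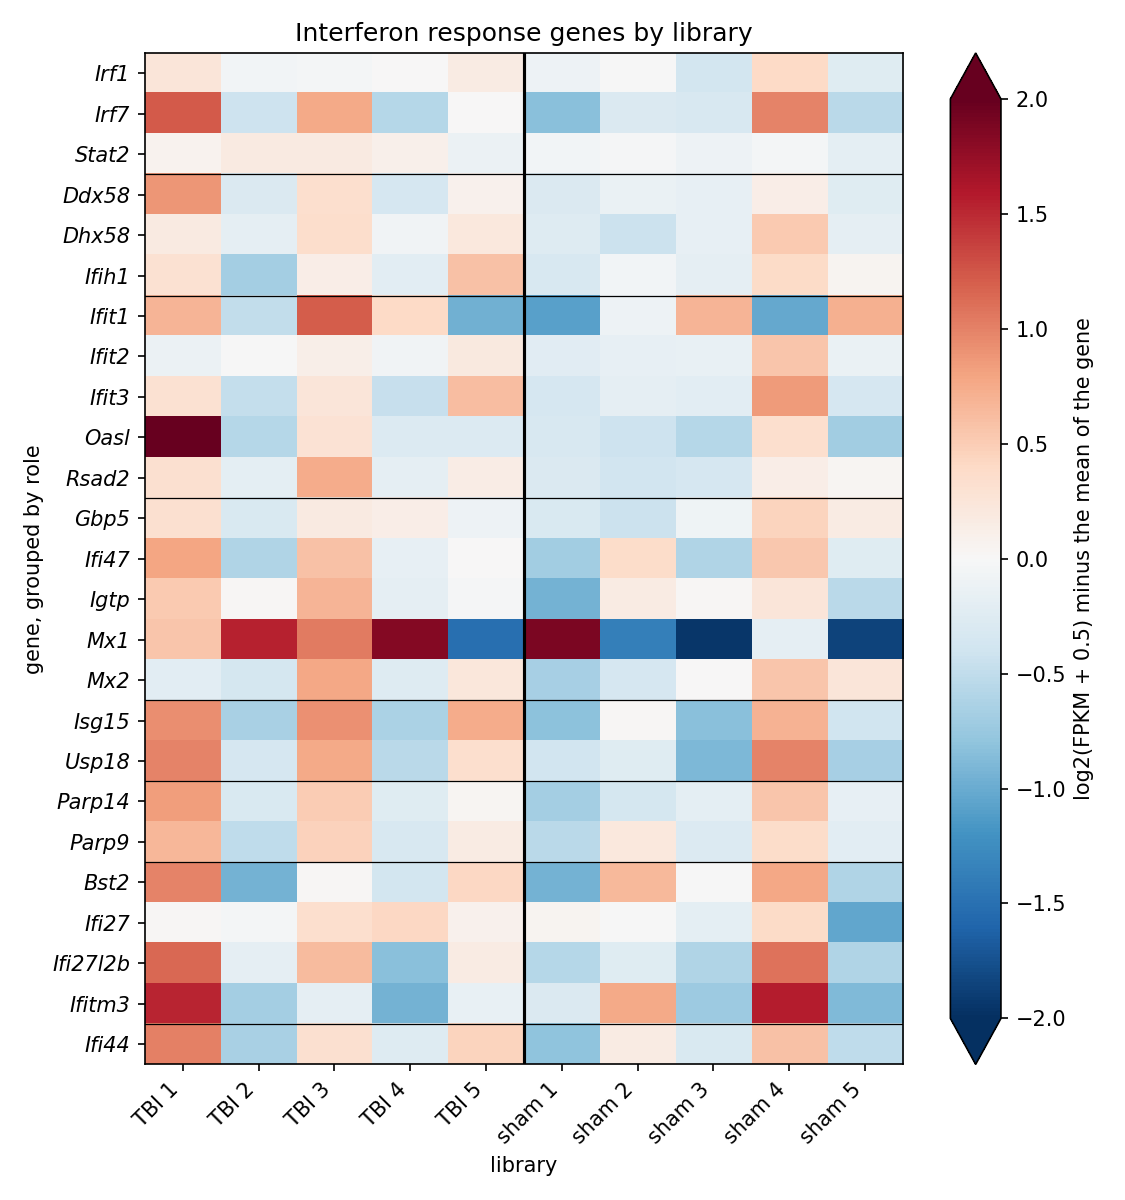
Log2(FPKM + 0.5) of each of the 25 genes minus its mean over the 10 libraries, TBI 1 to 5 left of sham 1 to 5, with genes grouped by role. TBI 1, TBI 3 and TBI 5 are above the mean for 23, 23 and 18 of the 25 genes and sham 4 for 22, the other libraries for at most 7, and Mx1 and Ifit1 follow another order; colours end at 2 log2 units either side.

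Irf7 alone separated TBI 1, sham 4 and TBI 3 from the other 7 libraries, by a gap of 0.76 in a log2 range of 2.08, so no correlation with Irf7 over all 10 libraries is given. These 3 libraries were the 3 highest for 10 of the 25 genes (40.0%), Irf7 included, against 1.15% of all genes tested. The 10 were Irf7, Oasl, Usp18, Ifi27l2b, Ddx58, Parp9, Parp14, Gbp5, Ifi47 and Igtp. They were among the 5 highest libraries for 18 genes (72.0%), against 7.52% of all genes tested. The exceptions were Irf1, Ifit1, Ifit2, Mx1, Mx2, Stat2 and Ifi27. Oasl, which reached the minimum mean only through TBI 1, counts in both shares of the 25 genes. The libraries were picked by Irf7, itself one of the genes, so these shares are a description.

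Among the other 7 libraries, the order of Irf7 was not shared to a degree that passed adjustment. Spearman's rho with Irf7 was above 0 for 17 of the 24 other genes, with a median of 0.48, and 0 of 24 passed Benjamini-Hochberg adjustment in exact permutation tests (smallest adjusted p 0.162). The highest was Ddx58, with rho = 0.93 (exact permutation p = 0.00675) and r = 0.87 (exact permutation p = 0.0101, adjusted 0.153, n = 7). Mx1 had the lowest rho, -0.61. Without the 2 libraries farthest from the median of Irf7, r was 0.88 for Ddx58 and was above 0 for only 12 of the 24 other genes.

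Markers of meninges, microglia and choroid plexus were high in some of these libraries and not in others. The mean centred log2 level of the meninges and matrix list was 1.49 in TBI 1 and 1.61 in sham 4, but -0.34 in TBI 3, and it was 1.13 in sham 2, where that of the interferon response genes was -0.11. The 14 microglia markers, all matched, summed to 364 to 625.3 FPKM in TBI and 361 to 480 FPKM in sham libraries. TBI 3 was the highest of the 10 in microglia markers, while TBI 1 at 407 FPKM lay within the sham range. Single markers of a list differed in their order of libraries. Aif1, a microglial calcium-binding protein, had 36.9 FPKM in TBI 3 and 23.2 FPKM in TBI 1, against 24.2 FPKM in sham 4. Cd68, of the same list, had 3.70 FPKM in TBI 1, 9.74 FPKM in TBI 3 and 3.75 FPKM in sham 4, against at most 2.415 FPKM in the others. Of 16 markers of blood-borne leukocytes, 15 matched and 10 of these had a mean under 0.5 FPKM. Their sums were 8.20 to 21.1 FPKM in TBI and 4.45 to 22.6 FPKM in sham libraries, with Cd3e alone at 18.7 FPKM in sham 5. Ptprc, another of them, had 1.72 FPKM in TBI 1 and 1.93 FPKM in TBI 3 and in sham 4, against at most 1.075 FPKM in the others. The mean centred log2 level of this list was 0.313, -0.12, 0.123, -0.233 and 0.107 in TBI 1 to 5, against -0.35, 0.237, -0.136, 0.214 and -0.155 in sham 1 to 5. It was thus above 0 in TBI 1, TBI 3 and sham 4, and also in TBI 5 and sham 2. The mean centred log2 level of the choroid plexus list was 2.82, -2.79, 1.06, 1.38 and 1.85 in TBI 1 to 5, against -3.15, 2.20, 1.19, -2.59 and -1.98 in sham 1 to 5. Choroid plexus markers were thus high in 4 of 5 TBI and 2 of 5 sham libraries, lowest in sham 1, the lowest library for 9 of the 25 genes, and low in sham 4. The part of these cells in the levels of the interferon response genes was not tested.

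**Figure D5:**
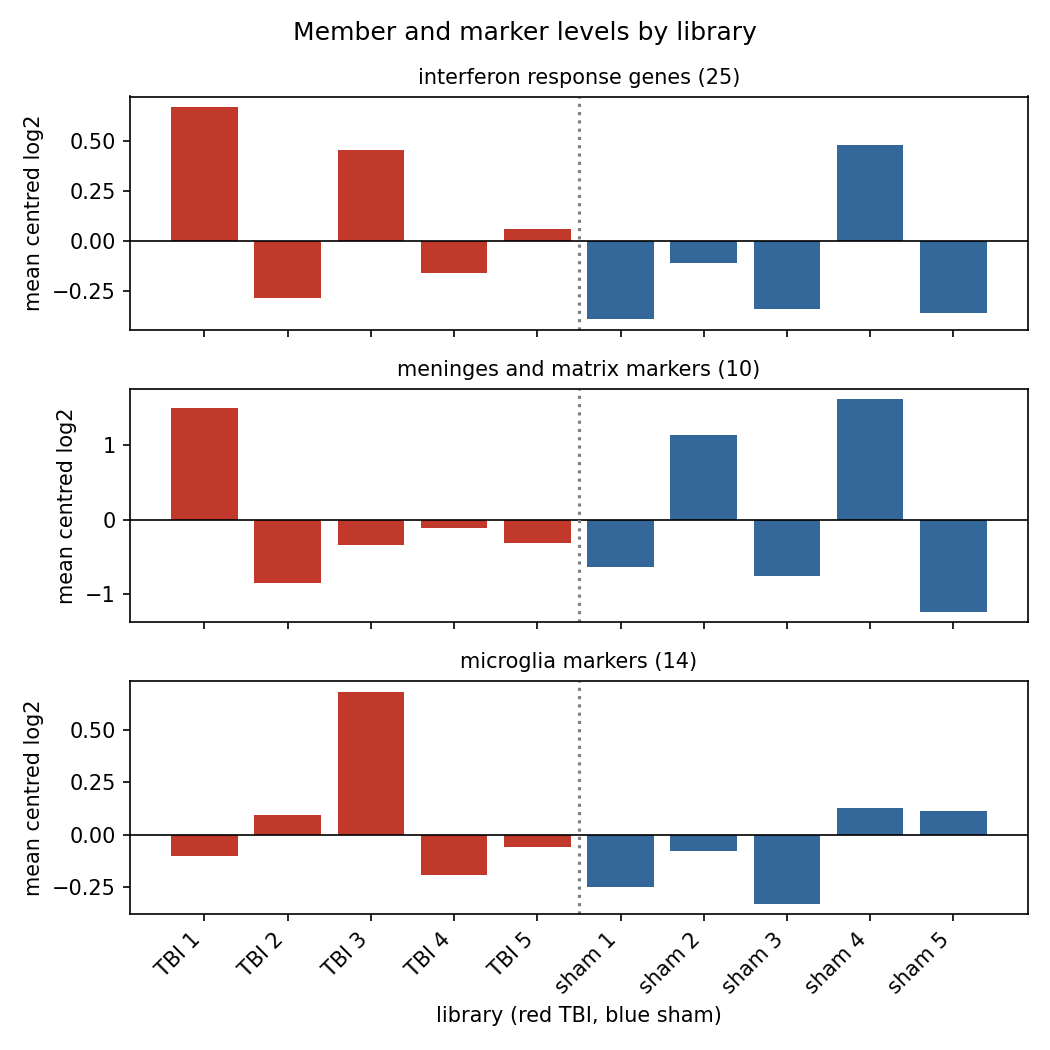
Mean centred log2(FPKM + 0.5) in each library of the 25 interferon response genes, of 10 meninges and matrix markers and of 14 microglia markers, with TBI 1 to 5 in red left of sham 1 to 5 in blue. Matrix markers are high in TBI 1, sham 2 and sham 4, and microglia markers in TBI 3.

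Other genes of the interferon pathway did not pass the test either. The list, which holds none of the 29 genes, had 68 symbols, of which 57 matched and 46 were tested. Of the 46, 33 had a higher and 13 a lower mean log2 level in TBI (31 higher after median scaling), 0 passed limma's adjusted test (smallest adjusted p 0.983), and the median log2 difference was 0.08. The balance by sign depended on single libraries, with 23 of 46 higher in TBI without sham 1, 41 of 45 without sham 4, and 23 of 45 with libraries 2 to 5 alone. The interferons Ifnb1, Ifng and Ifna1 were listed at 0 in all 10 libraries. So was Col1a2, while Col1a1 had 34.3 FPKM in sham 4, and no detection limit can be given for a listed 0. Of the receptors, Ifnar1 had 17.5 to 19.4 FPKM in TBI and 15.1 to 21.4 FPKM in sham libraries, and its log2 difference was 0.01 (SE 0.10, 95% interval -0.21 to 0.23). The log2 difference was 0.15 (SE 0.13) for Ifngr1 and -0.04 (SE 0.13) for Ifngr2.

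Of the signalling genes, 5 of 8 had the higher mean in TBI (4 of 8 after quantile normalization, and 3 of 8 without TBI 1, without sham 3 or with libraries 2 to 5 alone). Of the sensors, adaptors and kinases that induce interferon, all 11 tested had the higher mean in TBI, but 10 did so after median scaling or quantile normalization and 8 without TBI 3 or without sham 1. Tlr3, the endosomal sensor of double-stranded RNA, had 3.85, 1.19, 2.42, 2.16 and 2.77 FPKM in TBI 1 to 5, against 0.506, 1.99, 1.69, 1.86 and 1.07 FPKM in sham 1 to 5. TBI 1, 3, 4 and 5 lay above every sham library, and the log2 difference was 0.64 (SE 0.30, 95% interval -0.02 to 1.30).

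Of the 24 other induced genes tested, 15 had a higher and 9 a lower mean in TBI, and with array weights 11 were higher and 13 lower. Without sham 1, 9 were higher and 15 lower, without sham 4, 22 were higher and 1 lower, and with libraries 2 to 5 alone, 8 were higher and 15 lower. Eif2ak2, which encodes PKR, the kinase that stops translation on double-stranded RNA, had 8.78, 6.33, 7.56, 7.11 and 7.59 FPKM in TBI 1 to 5, against 5.81, 5.04, 5.86, 6.81 and 6.28 FPKM in sham 1 to 5. TBI 1, 3, 4 and 5 lay above every sham library and TBI 2 lay within the sham range. The log2 difference was 0.30 (SE 0.11, 95% interval 0.07 to 0.54), with an unadjusted p of 0.0158 and an adjusted p of 0.983 in limma. This unadjusted p was the only one under 0.05 among the 46 genes. Of all genes tested, 1.41% were higher and 1.51% lower in TBI at that unadjusted threshold. Lgals3bp, a secreted binding protein of galectins, had 10.2 to 60.7 FPKM in TBI and 5.86 to 40.5 FPKM in sham libraries, with a log2 difference of 0.89 (SE 0.54). The log2 difference was 0.42 (SE 0.25) for Uba7, the enzyme that activates ISG15, and 0.12 (SE 0.09) for Cmpk2, a mitochondrial nucleotide kinase.

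Genes on neither the interferon response list nor the pathway list were compared with the mean of the 25 in order over the 10 libraries. The 8 most alike included antigen presentation genes. Absence from these lists does not place a gene outside the interferon response. Cd74, the chaperone of MHC class II, was first, with a Spearman's rho of 0.964, which describes the order of the 10 libraries, the 3 high ones included, and carries no test. It had 60.2, 7.60, 20.7, 11.3 and 15.3 FPKM in TBI 1 to 5, against 5.0, 39.3, 7.02, 51.2 and 6.47 FPKM in sham 1 to 5. TBI 1, sham 4 and sham 2 were its highest libraries, with TBI 3 next. RT1-Da, a rat MHC class II chain (rho 0.939), and Ifi30, a lysosomal reductase of antigen processing (rho 0.939), were also among the 8. The others were As3mt, Inpp4b, Atg16l2, Cd14 and Creb3l2, with rho from 0.927 to 0.952. None of the 8 passed limma's adjusted test (adjusted p 0.983 each).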

How the data were processed

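Per the labels' protocols, poly-A RNA of 5 TBI and 5 sham hippocampus libraries went onto a HiSeq instrument. The authors deposited FPKM per locus, in a table of 25269 rows. The submitters' processing notes name TopHat, TopHat2, Bowtie, Bowtie2, Cufflinks, Cuffdiff and rn5, without roles or versions. All values of the 25 genes carried the status OK. Values were continuous, so reads could not be recovered, no count test was run and depth is unknown. FPKM sums ran from 523239 to 629660 per library. FPKM carries no strand here, so overlapping genes cannot be told apart.

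Rows sharing a symbol were summed, which left 23824 genes, and 16194 with a mean of at least 0.5 FPKM were tested, 4705 of them without a symbol. Groups were compared with limma 3.58.1 (R 4.3.3) on log2(FPKM + 0.5), two-sided, with a mean trend and no covariate, and Benjamini-Hochberg adjustment over all genes tested at 0.05. Changes of low genes come out too small on this scale. Exact permutation tests between the groups, run in R, used all 252 assignments of the libraries, whose smallest p is 0.00794. Those of the correlations with Irf7 used all orders of the 7 libraries (NumPy 2.4.6), with r and rho from SciPy 1.17.1. The script was tested on simulated data. Groups come from the treatment in the labels. The named genes are all 29 genes, the 6 genes of the pathway list with the smallest p and a mean of at least 1 FPKM, its receptors, and the 8 genes most alike in order; 1 further gene named by the rule is not reported here. The genes and lists were chosen with earlier results of these data known. Alternatives covered the pseudocount, filter, scaling, loci, variance model, weights, replicate block and libraries left out.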

Additional observations from a re-analysis of the deposited data

Results flagged for a closer look

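In 5 of the 50 combinations of gene and group looked at, 1 library stood far from the other 4 of its group, where chance gives about 1 in 20, or 2.5. Of these 5, 1 was in TBI 1 and 4 were in sham 4. The genes vary together, so the 50 combinations are not separate observations, and the 2.5 would hold only for separate ones. In TBI 1, Oasl had 4.35 FPKM, against 0.0763 to 0.547 FPKM in the other TBI libraries, and it reached the minimum mean only through TBI 1. In sham 4, Ifit2 had 3.39 FPKM, against 1.75 to 1.90 FPKM in the other sham libraries, and Ifit3 had 2.17 FPKM, against 0.664 to 0.799 FPKM. Ifi27l2b had 10.2 FPKM in sham 4, against 2.80 to 3.76 FPKM, and Dhx58 had 2.52 FPKM, against 1.06 to 1.36 FPKM. Sham 4 and TBI 1 were also among the 3 libraries highest in meninges and matrix markers, with 423 and 607 FPKM in sum. The part of that tissue in these values was not tested.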

How the results depend on the processing

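Under all 24 alternatives, 0 interferon response genes and 0 pathway genes passed adjustment. Over all genes, 0 passed except 2 without sham 4 (Plac9 and the unnamed locus XLOC_020489) and 1, Plac9, without TBI 1 and sham 4 together, so the range with 1 library left out was 0 to 2. The median log2 difference ran from 0.138 to 0.38 with each library left out, and 0.225 with a pseudocount of 1 to 0.306 with one of 0.1. Of 567 values of single genes, 535 kept their direction and 32 changed sign, in 12 genes; in the other 13 none did. After quantile normalization Ifit2 was at -0.02 (-0.0169) and Ifih1 at -0.037. With array weights Ifit1 was at -0.111, Mx2 at -0.0362, Bst2 at -0.184 and Ifih1 at -0.0152. With libraries 2 to 5 alone Ifit3 was at -0.0483, Ifit1 at -0.024, Irf7 at -0.0198, Ifi47 at -0.0538, Mx2 at -0.0203, Parp9 at -0.074, Bst2 at -0.422, Gbp5 at -0.0493, Ifi44 at -0.0163 and Ifih1 at -0.10. Without TBI 1 and sham 4 together Ifit1 was at -0.00656. With each library left out, Bst2 ran from -0.194 to 0.289, Ifih1 from -0.0953 to 0.219, Mx2 from -0.11 to 0.222, Ifitm3 from -0.577 to 0.196, Ifit3 from -0.0528 to 0.317, Ifit2 from -0.00146 to 0.195 and Gbp5 from -0.0133 to 0.207. The cause of these turns was not tested. TBI 1, sham 4 and TBI 3 were the 3 highest libraries for 9 of 24 genes besides Irf7, Oasl among them, and, with group means taken away, for 6. Without TBI 1 and sham 4, the 2 libraries farthest from the median of Irf7, TBI 3 was the highest of the remaining 8 libraries for 14. The 14 is another kind of count and cannot be set against the 9 and the 6. The shares of all genes for the 6 and the 14 are not given here.

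With the library number as a replicate block, 0 interferon response genes passed (smallest adjusted p 0.963 in limma), 0 of all genes passed, and the median was 0.275. Deviations of same-numbered libraries correlated at -0.10, -0.379, 0.0446, -0.105 and 0.306 for numbers 1 to 5. These values show no pairing by number, but 5 correlations cannot exclude one. DESeq2 or edgeR on recovered reads was not run, since whole reads could not be recovered. The 5 libraries a group and the low levels limit what can be seen: 9 of 25 intervals reach a log2 difference of 1.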

Other observations

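Mx1 had the largest difference among the 25 genes and an order of libraries unlike the rest, and it was looked at more closely after its values had been seen. Of 10843 genes compared, those most like Mx1 in order over the 10 libraries, as a description, were Hcn3, a pacemaker channel (Spearman's rho 0.976), Cpne7, a copine that binds membranes with calcium (0.952), and LOC641520 (0.952). Cpne7 had 38.8, 92.8, 65.2, 100.7 and 18.5 FPKM in TBI 1 to 5, against 128.9, 34.4, 19.96, 22.8 and 15.8 FPKM in sham 1 to 5. Sham 1, TBI 4 and TBI 2 were the 3 highest libraries of Cpne7 and of Mx1. Of the neighbours of Mx1 in GRCr8, Bace2 had 2.53, 2.78, 1.24, 4.39 and 1.68 FPKM in TBI 1 to 5, against 3.14, 2.01, 1.14, 2.03 and 1.44 FPKM in sham 1 to 5, while Mx2 followed another order. So did Dscam, highest in sham 4 at 4.32 FPKM and lowest in TBI 1 at 2.43 FPKM. Fam3b and Tmprss2 were near 0, with at most 0.0606 and 0.0967 FPKM.

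Ifitm1 and Ifitm2, relatives of Ifitm3 in the pathway list, had the same 3 highest libraries as Ifitm3, and are named after their values were seen. Ifitm2 had 40.6, 6.83, 10.7, 9.72 and 13.5 FPKM in TBI 1 to 5, against 8.50, 32.0, 7.80, 40.8 and 8.22 FPKM in sham 1 to 5. Ifitm1 had 14.3 FPKM in TBI 1 and at most 3.58 FPKM in the other TBI libraries, against 15.4 FPKM in sham 4 and 11.9 FPKM in sham 2.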
